A study of Mus musculus with 6 samples.

Results

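Mitochondria hold their own ribosomes, and the proteins of these ribosomes are encoded by nuclear genes with symbols that begin with Mrpl, for the large subunit, or Mrps, for the small subunit. The mitochondrial ribosomal protein family was taken as every table entry with a single symbol of that form followed by a number, and 62 of the 8078 listed genes were members. Of a list of 78 family symbols, 16 had no such entry of their own and were not analysed here, among them Mrps34 and Mrps18b. A further 2 entries join a family symbol with a neighbouring gene, Mrpl53 with Ccdc142 and Mrps6 with Slc5a3, and they were not counted as members.

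The ribosome of the mitochondrion translates the few proteins that mitochondrial DNA encodes, nearly all of them core subunits of the respiratory chain and the ATP synthase. Its small subunit reads the messenger RNA and its large subunit forms the peptide bond. Part of its proteins descend from those of the bacterial ribosome, and the others are found in mitochondria only. Horizontal basal cells are the dormant stem cells of the olfactory epithelium, and they are known to be activated when the cells above them are lost.

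RNA was sequenced from TdTomato-positive cells sorted from the olfactory epithelium of 12-week-old mice of the strain labelled B6;KRT5-CreER;Ai9 fl(Stop)TdTomato. In these mice of both groups, tamoxifen given 2 weeks before the sort lets a keratin 5 promoter-driven Cre recombinase switch on the fluorescent protein, so the sort marks cells that expressed keratin 5 at that time and any descendants. The 3 uninjured libraries came from mice without a lesion, and the 3 injured libraries from mice exposed to methyl bromide gas at 180 ppm for 8 h and taken 18 h later. Methyl bromide destroys most of the olfactory epithelium. Several animals were pooled for every library, as the labels state, so the library is the replicate. Values were taken as FPKM, read fragments scaled to transcript length and library size, which allows levels of different genes to be compared per length. Read depth is unknown. A change here is the injured mean minus the uninjured mean of log2(FPKM + 1), and it understates what happens to low genes.

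Summed FPKM ran from 164265 to 231755 per library. Of these sums the single entry Mir703 made up 47968, 45862 and 54556 FPKM uninjured and 16361, 19074 and 43118 injured. The basal cell markers fixed for this check were listed for 8 of 10 genes, and their summed level was 443 to 448 FPKM without injury and 393, 255 and 532 in replicates 1 to 3 of the injured group. Trp63, the transcription factor that keeps these cells dormant, was at 179 ± 19.9 FPKM (SD, n = 3) without and 117 ± 20.9 with injury, and Krt5, Krt14 and Omp have no entry of their own and were not analysed here. Markers of mature olfactory neurons, 8 of 10 listed, summed to 438 to 751 FPKM without injury and to 154, 405 and 128 with it, so neuronal RNA was present in every library. Markers of globose basal and neuronal precursor cells, 7 of 8 listed, summed to 26.4 to 38.95 and to 26.7, 173 and 32.5, and among the injured libraries replicate 2 had the lowest basal cell sum and the highest neuronal and precursor sums. Sustentacular cell markers, 6 of 8 listed, were at 246 to 265 and 173, 149.5 and 144. Leukocyte and red cell markers, 4 of 11 listed, summed to 82.2 to 195 and 141, 61.2 and 97.2, and Cd74 made up most of the uninjured sum. Apart from Cd74, injured replicate 1 was the highest library for this list, with Ptprc, the pan-leukocyte marker CD45, at 17.9 FPKM against at most 3.52 uninjured, S100a8 at 41.4 against at most 19.1 and S100a9 at 41.7 against at most 17.1. Gland and respiratory markers, 2 of 8 listed, were at 3043 to 4986 and 2228, 1189 and 2298. Stromal markers, 3 of 9 listed, summed to 126 to 220.0 and 101, 77.7 and 32.8 with Dcn at 116, 162 and 145 uninjured and 27.5, 62.5 and 15.3 injured, while Col1a1 and Col1a2 were highest in injured replicate 1, at 26.9 and 46.5 against at most 26.2 and 31.6 uninjured. No listed marker was at the lowest value of the table in every library. Xist, expressed from the inactive X chromosome, was at 29.4 ± 3.82 FPKM (SD, n = 3) in uninjured and 0.324 ± 0.249 in injured libraries. Xist was the only gene called in the comparison below (limma adjusted p = 0.000223). The Y-linked Eif2s3y was at 18.8, 2.73 and 2.55 uninjured and 22.98, 29.3 and 21.1 injured, and Kdm5d at 3.33, 0.656 and 0.631 uninjured and 4.60, 4.72 and 2.85 injured. Ddx3y was at 6.67, 1.21 and 1.55 uninjured and 7.74, 8.90 and 11.6 injured, and Uty at 3.71, 0.439 and 1.62 uninjured and 13.7, 9.91 and 7.10 injured. Uninjured replicate 1 was thus near the injured libraries for Eif2s3y, Kdm5d and Ddx3y, below them all for Uty, and with the uninjured ones for Xist. The sex of the pools was not given, and injury and sex cannot be told apart. Fewer cells of a type and less RNA per cell cannot be told apart in these bulk samples either.

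Promoters of members chosen by the size of their change, none of which passed the test given below, are shown first. Mitochondrial ribosomal genes are known to be controlled through short motifs close to their start sites. For each of the 6 members with the largest changes among those whose libraries did not overlap, the 100 bases before the RefSeq start site are printed 5′ to 3′ on the gene's strand where the RefSeq table (build GRCm38.p6) has the gene, which is the case for 5, all but Mrpl15. Capitals mark matches to the motifs searched.
Mrpl51, chr6:125192100-125192199, + strand: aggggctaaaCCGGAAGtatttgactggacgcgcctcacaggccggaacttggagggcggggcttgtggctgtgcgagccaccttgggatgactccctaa
Mrpl32, chr13:14613038-14613137, - strand: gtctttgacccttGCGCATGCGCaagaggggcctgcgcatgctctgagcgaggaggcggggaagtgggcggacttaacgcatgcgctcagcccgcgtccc
Mrps27, chr13:99344686-99344785, + strand: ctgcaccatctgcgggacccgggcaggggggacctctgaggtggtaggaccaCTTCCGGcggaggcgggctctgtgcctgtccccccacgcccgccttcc
Mrpl1, chr5:96210015-96210114, + strand: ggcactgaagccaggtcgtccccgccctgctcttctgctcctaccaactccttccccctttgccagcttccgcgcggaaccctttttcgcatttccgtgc
Mrpl40, chr16:18876638-18876737, - strand: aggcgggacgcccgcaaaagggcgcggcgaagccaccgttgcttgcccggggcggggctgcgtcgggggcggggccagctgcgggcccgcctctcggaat

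The motifs were the letters CCGGAAG, bound by ETS factors such as GABPA, the motif of NRF1 with 1 central base left free, AAGATGGC for YY1 and CACGTG, the E-box of Myc and related factors, each searched on both strands in the 250 bases before and 50 after the start site. No motif contains another. Of the 62 members, 55 matched the promoter table, with 58 promoters, and Mrpl4, Mrpl13, Mrpl15, Mrpl38, Mrpl54, Mrps28 and Mrps35 did not. Counted by gene, the ETS letters were in the promoter of 32.7% of matched members, against 19.8% of listed genes and 9.93% of all genes with a promoter of this length. For the YY1 letters the shares were 21.8%, 5.39% and 3.19%, for the NRF1 motif 16.4%, 12.1% and 5.19%, and for the E-box 9.09%, 11.7% and 8.09%. The median GC content was 58.8% in member promoters and 61% in those of listed genes. These shares are descriptions and were not tested. Of the 12 YY1 matches, 8 began 12 to 37 bases after the start site, as in Mrps27. Mrpl51 and Mrps27 hold the ETS letters and Mrpl32 the NRF1 motif in the printed stretch, while no motif searched is within the printed stretch of Mrpl1 and Mrpl40. The ETS letters were in 3 of the 9 non-overlapping members matched and in 18 of the 55 members.

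The comparison asks how the family's RNA differs in the sorted cells 18 h after the lesion. No member passed the test in either direction: with limma and Benjamini-Hochberg adjustment over 7987 genes, 0 of 62 members were higher, where 0% of all genes were, and 0 were lower, where 0.0125% of all genes were. The family nevertheless lay mostly on the higher side. The change was positive for 51 of 62 members, 82.3%, against 62.9% of all genes, and the median change was 0.32 against 0.16. The 51 include Mrps22, listed at the table's lowest value, 0.001, in all libraries but injured replicate 1, so its change had to be positive. Without the members that hold a value of 0.001, 49 of 60 were positive. At an unadjusted p under 0.05 there were 5 higher members, 8.06% of the family, beside 7.15% of all genes, and 0 lower ones, beside 4.04% of all genes. All 3 injured libraries lay above all 3 uninjured ones for 10 members, 16.1% of the family against 12% of all genes, and below them for 0 members against 6.75% of all genes. The first of these shares is near the background, and so is that at an unadjusted p. limma without its trend and robust steps also called 0 members in either direction, where it called 3 of 7987 genes higher and 3 lower. With library quality weights limma called 0 members as well, while it called 1.06% of all genes higher and 0.613% lower. The counts of non-overlapping members were 6 higher and 2 lower after upper-quartile scaling, 9.68% and 3.23% of the family, where 7.27% and 11.2% of all genes did not overlap. They were 7 and 2 after quantile normalization, 11.3% and 3.23%, where 7.64% and 10.7% of all genes did not. These scalings bring the median of all genes to -0.0081 and 0.0087 and that of members to 0.14 and 0.14. With the entry Mir703 left out and the libraries scaled to an equal sum, the median was 0.17 for members and 0.015 for all genes. In that order, positive members numbered 45, 44 and 46. The share of all genes with a positive change was not computed for these scalings, and the 62.9% above is not their background.

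**Figure D1:**
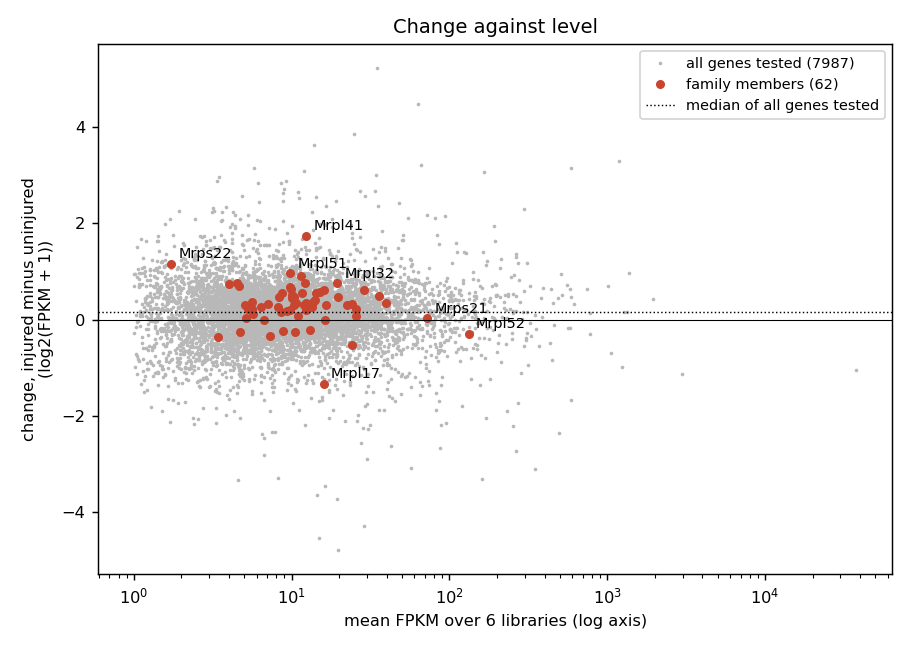
Change between injured and uninjured libraries on the log2(FPKM + 1) scale against mean FPKM over 6 libraries (log axis), with the 62 members in red over all 7987 genes tested in grey; the dotted line is the median of all genes. Most members lie above 0, within the cloud of the other genes.

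The 3 injured libraries did not show this equally. The median member stood 0.68 above its uninjured mean in injured replicate 1, at -0.0084 in replicate 2 and 0.32 above it in replicate 3, while the median of all genes was at 0.14, 0.014 and 0.18. In injured replicate 1, 44 members (70.97%) exceeded every uninjured library, against 42.8% of all genes. In replicate 3 these were 32 members (51.6%) against 44.7%, and in replicate 2 they were 15 (24.2%) against 33.9%. Members below every uninjured library numbered 5, 6 and 1 in replicates 1 to 3, or 8.06, 9.68 and 1.61%, where 28.03, 30.6 and 23.8% of all genes were. Few members thus fell below every uninjured library. Uninjured replicate 1 was the lowest of all libraries for 33 of the members without a value of 0.001, and for these it set the bar. The family's summed level was 709, 942 and 989 FPKM in uninjured replicates 1 to 3 and 1237, 827 and 992 in injured ones, and uninjured replicate 1, with the lowest sum, had the lowest median of its group. As a share of each library's summed FPKM, Mir703 included, the family made up 0.376, 0.453 and 0.459% uninjured and 0.605, 0.503 and 0.428% injured. By this share injured replicate 2 exceeded every uninjured library, and injured replicate 3 lay below uninjured replicates 2 and 3. Without injured replicate 1 the median change of members was 0.18 beside 0.15 for all genes, and without uninjured replicate 1 it was 0.20 beside 0.14. Without injured replicate 2 it was 0.46 beside 0.18, and 2 members were then higher, where 3.52% of genes were, and 0 lower, where 1.17% were. That library had the lowest basal cell and the highest precursor marker sums, and injured replicate 1, highest for the family, had the highest levels of Ptprc, S100a8, S100a9, Col1a1 and Col1a2. The part of these cells in the result was not tested.

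**Figure D2:**
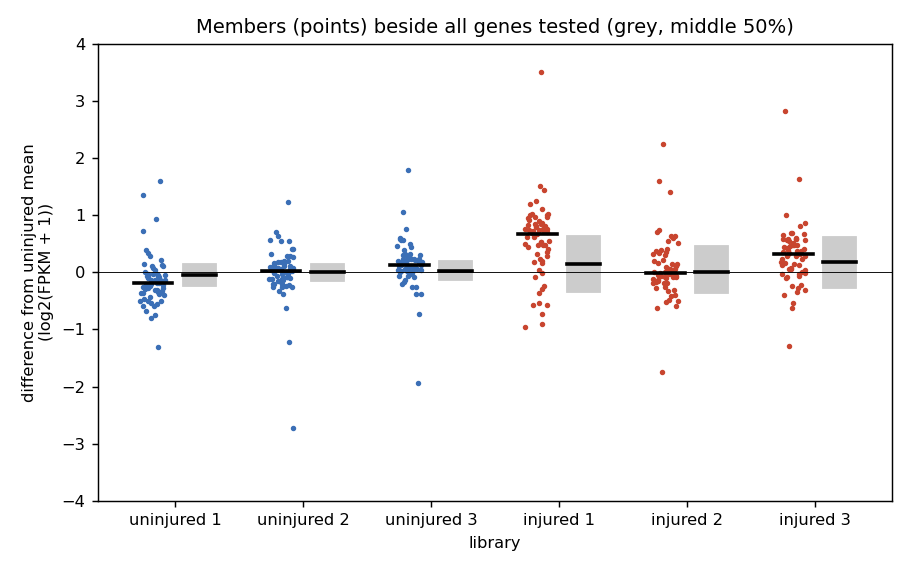
Difference of each member from its uninjured mean on the log2(FPKM + 1) scale in each of the 6 libraries (points, blue uninjured, red injured, bar at the median), beside the middle 50% of all genes tested (grey box, bar at the median). Members sit highest in injured replicate 1, with a median of 0.68, and around 0 in injured replicate 2.

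With all 6 libraries the medians of both subunits lay above that of all genes. The 41 members of the large subunit had a median change of 0.32, with 33 positive (80.5%) and 8 non-overlapping (19.5%), and the 20 of the small subunit a median of 0.28, with 17 positive (85%) and 2 non-overlapping (10%). Of all genes 62.9% were positive and 12% non-overlapping on the higher side. The small subunit's share without overlap, from 2 members, was near that of all genes. The 39 members classed as having a bacterial homologue had a median of 0.31 and the 22 classed as found in mitochondria only, Mrpl47 among them, a median of 0.34. These classes were assigned by symbol and not checked against sequences, and the medians depend on them. The symbol does not always give the subunit: Mrps18a and Mrps30 are part of the large subunit and were counted there, and Mrps36 belongs to the alpha-ketoglutarate dehydrogenase complex and was left out of both. In injured replicate 1 the small subunit's median stood 0.74 above its uninjured mean and the large subunit's 0.55, and in replicate 3 the order was the other way, with 0.22 and 0.40. Without injured replicate 1 the small subunit's median, over 19 members, was 0.045, below the 0.15 of all genes, and the large subunit's was 0.26. Without uninjured replicate 1 the medians were 0.147 for the small and 0.234 for the large subunit, beside 0.139 for all genes. The small subunit's place above all genes thus depended on single libraries. No difference between the subunits was tested.

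**Figure D3:**
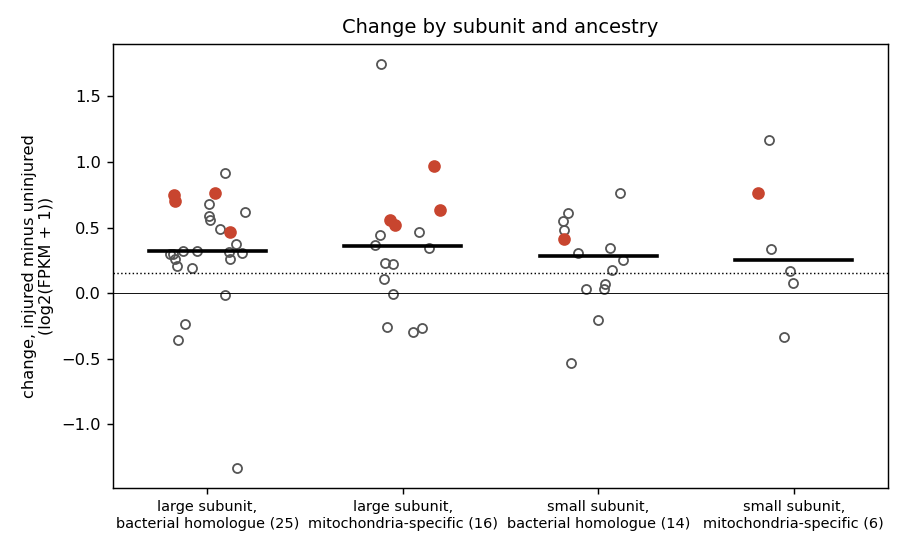
Change of each member in log2(FPKM + 1), injured minus uninjured, by subunit and by whether the protein was classed as having a bacterial homologue. Filled red points are members whose 3 injured libraries all exceed the uninjured ones, bars are class medians and the dotted line is the median of all genes. The 4 class medians lie between 0.25 and 0.36.

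Among the non-overlapping members of the large subunit, Mrpl51, a protein found in mitochondria only, was at 4.72, 6.30 and 7.32 FPKM in uninjured replicates 1 to 3 and at 11.3, 20.4 and 8.86 in injured ones. The means were 6.11 ± 1.31 and 13.5 ± 6.09 (SD, n = 3), and the highest value was in injured replicate 2, unlike most members. The change was 0.97 (SE 0.33, 95% interval 0.23 to 1.71, limma adjusted p = 0.360). Mrpl32, a homologue of bacterial L32 that a mitochondrial protease must trim before the ribosome is assembled, was at 14.3, 12.5 and 14.9 without injury and at 28.1, 17.7 and 28.8 with it. The uninjured values were close together (13.9 ± 1.24 against 24.9 ± 6.22, SD, n = 3), and injured replicates 1 and 3 lay far above them with replicate 2 between. Its change was 0.76 (SE 0.27, limma adjusted p = 0.369), and without injured replicate 2 it was 0.98 (limma adjusted p = 0.0447).

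Mrpl15, a homologue of bacterial L15 in the large subunit, was at 3.01, 2.40 and 2.72 FPKM without injury and at 6.27, 5.02 and 4.52 with it. All 3 injured libraries were well above the uninjured ones (change 0.75, SE 0.32, limma adjusted p = 0.425). Mrpl1, the counterpart of the protein of the mobile L1 stalk that guides spent transfer RNA out, was at 4.35, 3.39 and 2.26 uninjured and 6.69, 6.12 and 5.05 injured. The groups came close at 4.35 and 5.05 (change 0.70, SE 0.32, limma adjusted p = 0.458). Mrpl40, whose human counterpart lies in the DiGeorge syndrome region, was at 5.09, 7.96 and 10.1 uninjured and 12.7, 12.1 and 11.5 injured. Here the injured libraries were nearly equal and the uninjured ones were spread (change 0.63, SE 0.28, limma adjusted p = 0.446).

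Mrpl39 and Mrpl43 are proteins of the large subunit without a bacterial counterpart. Mrpl39 was at 9.20, 12.7 and 11.7 FPKM in uninjured and 21.6, 13.9 and 15.9 in injured libraries. Mrpl43 was at 7.09, 8.31 and 8.41 uninjured and 17.1, 9.26 and 10.2 injured, with the injured group carried by replicate 1. Mrpl2, which lies at the peptide-forming centre, was at 5.15, 7.82 and 7.36 uninjured and 12.5, 7.92 and 8.91 injured. For Mrpl2 the lowest injured value exceeded the highest uninjured one by little, and the change was 0.46 (SE 0.28, limma adjusted p = 0.559).

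In the small subunit 2 members did not overlap. Mrps27, an RNA-binding protein of the pentatricopeptide repeat family, was at 2.83, 3.08 and 3.19 FPKM without injury and at 8.29, 4.73 and 5.01 with it. The uninjured libraries differed by 1.12-fold at most, and each injured one lay above (3.03 ± 0.181 against 6.01 ± 1.98, SD, n = 3; change 0.76, SE 0.33, limma adjusted p = 0.421). Mrps15, a homologue of a bacterial protein that binds the small ribosomal RNA, was at 10.2, 12.3 and 13.04 uninjured and 20.7, 13.2 and 15.01 injured. Its injured replicate 2 was just above uninjured replicate 3 (change 0.41, SE 0.26, limma adjusted p = 0.572).

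**Figure D4:**
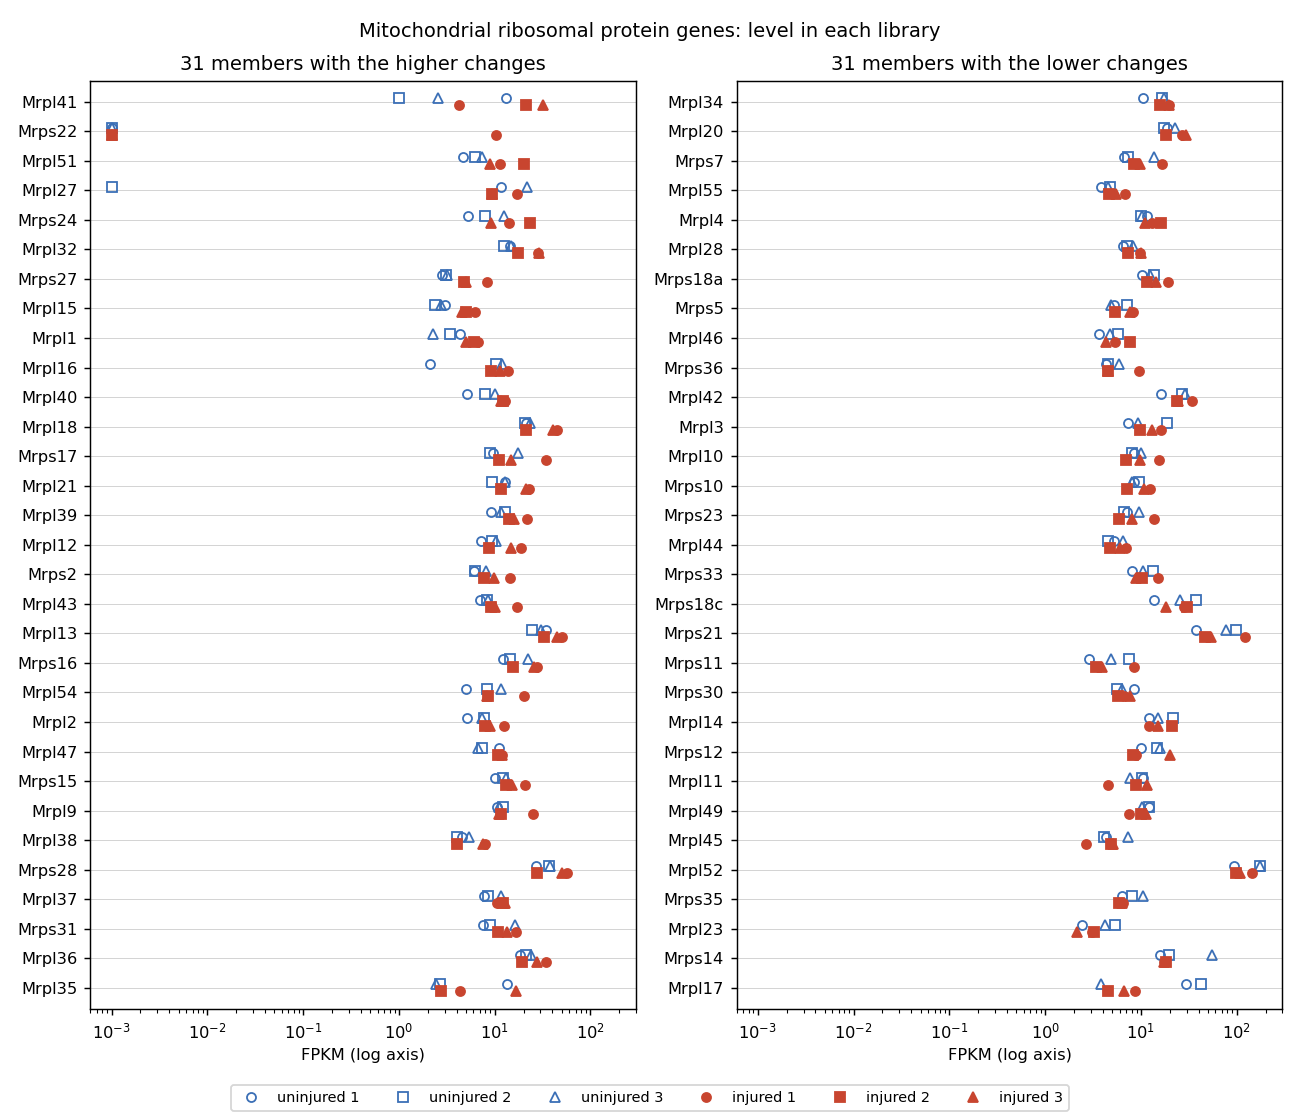
FPKM of each of the 62 members in the 6 libraries (log axis, open blue uninjured, filled red injured, symbol shape by replicate), ordered by change from the top of the left panel to the foot of the right. By mean level 59 of them lie between 2 and 60 FPKM, and the points at the left edge are values of 0.001, the lowest in the table.

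Levels per length spread widely within the family. Over all 6 libraries the median member was at 10.6 FPKM and the median of all genes at 8.82. Mrpl52, a large subunit protein found in mitochondria only and the most abundant member, was at 93.9, 174 and 176 FPKM without injury and at 146, 98.7 and 108 with it. Mrps21, a homologue of bacterial S21, was at 37.4, 97.6 and 76.8 uninjured and 121, 46.2 and 53.9 injured. For both the groups overlapped widely, and the changes were -0.29 (SE 0.36) and 0.032 (SE 0.46). Mrps21 had a negative change after each rescaling of the libraries, at -0.15 after upper-quartile scaling.

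Mrps28, the small subunit's homologue of bacterial S1, was at 27.3, 37.3 and 37.97 FPKM uninjured and 57.5, 27.7 and 50.6 injured, with injured replicate 2 at the level of uninjured replicate 1. Mrpl13, a homologue of bacterial L13, was at 34.5, 24.3 and 30.2 uninjured and 49.9, 32.5 and 44.3 injured. Mrpl18, the counterpart of the bacterial protein that binds the smallest ribosomal RNA, was at 21.3, 20.8 and 23.3 uninjured and 45.1, 21.3 and 40.5 injured. Mrpl18 separated widely in injured replicates 1 and 3 while replicate 2 lay within the uninjured range, and without that library its change was 0.94 (limma adjusted p = 0.0495), against 0.62 (limma adjusted p = 0.492) with it. The longest coding transcripts of Mrpl52, Mrps21 and Mrps28 have 463, 488 and 783 bases in GENCODE M21, where the median member has 1284, while those of Mrpl13 and Mrpl18 have 1223 and 1219 and that of Mrpl23, a member of low level, has 736. Across the 62 members, which share the 6 libraries, Spearman's rho between mean FPKM and that length was -0.297, a description only.

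The order of the members by level was kept in part from library to library. Across the 62 members, which are not independent replicates, Spearman's rho was 0.661 to 0.773 between uninjured libraries and 0.706 to 0.817 between injured ones, and across all genes it was 0.885 to 0.912 and 0.716 to 0.848. The highest injured library exceeded the lowest by more than 2-fold for 18 members, 29.03% against 49.97% of all genes. In uninjured libraries this was so for 15 members, 24.2% against 22.6%.

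Members with a known place in the ribosome are given next, whatever their change. The stalk that recruits translation factors holds Mrpl12, anchored through Mrpl10 beside Mrpl11. Mrpl12 was at 7.14, 9.36 and 10.3 FPKM without injury and at 18.8, 8.66 and 14.9 with it, and Mrpl10 was at 8.46, 8.08 and 9.89 uninjured and 15.5, 6.91 and 9.70 injured. Mrpl11 was at 10.4, 10.2 and 7.65 uninjured and 4.50, 8.83 and 11.6 injured. Injured replicate 1 was thus the highest library for Mrpl12 and Mrpl10 and the lowest for Mrpl11. The changes were 0.56 (SE 0.31), 0.19 (SE 0.31) and -0.23 (SE 0.34), with limma adjusted p of 0.532, 0.832 and 0.811.

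Mrps12, the homologue of the bacterial decoding-centre protein S12, was at 10.02, 14.8 and 15.9 FPKM in uninjured and 8.93, 8.29 and 19.9 in injured libraries. Mrps7, which sits in the head of the small subunit, was at 6.62, 7.34 and 13.8 uninjured and 16.4, 8.48 and 9.76 injured. Injured replicate 3 held the highest value of Mrps12 and replicate 1 that of Mrps7, and both groups overlapped. Mrpl3, close to the peptide-forming centre, was at 7.38, 18.5 and 9.32 uninjured and 16.1, 9.89 and 13.04 injured, and its highest library was uninjured replicate 2. Mrpl45, which tethers the ribosome to the inner membrane where the new chain emerges, was at 4.30, 4.11 and 7.26 uninjured and 2.66, 4.84 and 5.06 injured. Its lowest value was that of injured replicate 1, where most members were at their highest (change -0.26, SE 0.35, limma adjusted p = 0.796).

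The paralogues of bacterial S18 differ in place and level. Mrps18a of the large subunit was at 10.2, 13.6 and 12.6 FPKM without injury and at 19.01, 11.5 and 14.3 with it. Mrps18c of the small subunit was at 13.8, 37.5 and 25.6 uninjured and 28.1, 30.2 and 18.4 injured, above Mrps18a in each library, and the groups overlapped. The change of Mrps18c was 0.071 (SE 0.37) and was negative after each rescaling, at -0.11 after upper-quartile scaling. Mrps30 was at 8.36, 5.58 and 6.32 uninjured and 6.60, 5.76 and 7.68 injured, a change of -0.0052 (95% interval -0.62 to 0.61). Mrps36, the dehydrogenase subunit with a ribosomal symbol, was at 4.37, 4.47 and 5.92 uninjured and 9.63, 4.54 and 4.58 injured, with injured replicate 1 alone above the uninjured libraries.

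The lowest members by mean level were Mrps22, Mrpl23 and Mrpl15. Mrps22, a small subunit protein found in mitochondria only, was listed at 0.001, the table's lowest value, in 5 libraries and at 10.4 FPKM in injured replicate 1. What the value 0.001 stands for is not given in the sources used here, and 549 genes carry it in at least 1 library, so no fold is given. Mrps22 passed the filter on low values only through that library. Mrpl23, a protein beside the exit tunnel, was at 2.42, 5.41 and 4.19 uninjured and 3.08, 3.24 and 2.14 injured. Its change of -0.35 (SE 0.39) had limma adjusted p = 0.745.

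A few members, named after their values were seen, varied widely between libraries of the same group. Mrpl41, a large subunit protein found in mitochondria only, had the largest change of the family, 1.75 (SE 0.98, limma adjusted p = 0.553), from 13.2, 0.993 and 2.56 FPKM to 4.22, 21.01 and 32.1, so both groups were spread over 13.3-fold and 7.59-fold. Mrpl17, a homologue of a bacterial protein near the tunnel exit, had the most negative, -1.33 (SE 0.83, limma adjusted p = 0.579), with 29.6, 42.5 and 3.85 in uninjured and 8.56, 4.56 and 6.65 in injured libraries. Only its uninjured replicates 1 and 2 were high. Mrps14, a homologue of bacterial S14, was at 15.9, 19.7 and 55.5 uninjured and 17.3, 18.4 and 17.6 injured, with uninjured replicate 3 alone high, and Mrpl35, a homologue of bacterial L35, at 13.6, 2.68 and 2.43 uninjured and 4.39, 2.76 and 16.8 injured, with 1 high library in each group. Mrpl27, a homologue of bacterial L27, was at 0.001 in uninjured replicate 2 and at 11.6 and 21.8 in the other uninjured libraries, against 16.97, 9.26 and 9.46 after injury. Leaving out Mrps22 and Mrpl27, the members with a value of 0.001, the family's median change was 0.31.

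The other 29 members, with mean levels between 5.03 and 25.7 FPKM, had changes from -0.34 to 0.76, and 26 of them were positive. Their lowest limma adjusted p was 0.492. The negative ones, named after their values were seen, were Mrps35, Mrpl49 and Mrpl14. Mrps35 was at 6.37, 8.03 and 10.4 FPKM uninjured and 6.43, 5.87 and 6.37 injured, Mrpl49 at 12.1, 12.2 and 10.4 uninjured and 7.43, 9.98 and 11.3 injured, and Mrpl14 at 12.2, 21.5 and 15.2 uninjured and 12.2, 20.9 and 15.1 injured. Their libraries overlapped, and the values of Mrpl14 covered nearly the same range in both groups. Above 0.5 were 5, also named after their values were seen: Mrps24, Mrpl16, Mrps17, Mrpl21 and Mrps2. Mrps24 was at 5.29, 7.95 and 12.6 uninjured and 14.2, 23.3 and 9.16 injured, highest in injured replicate 2. Mrps17 was at 9.58, 8.89 and 17.3 uninjured and 34.3, 11.04 and 14.96 injured, and Mrpl21 at 12.7, 9.44 and 12.7 uninjured and 22.7, 11.7 and 20.97 injured, both with injured replicate 2 within the uninjured range. Mrpl16 was at 2.10, 10.2 and 11.96 uninjured and 13.9, 9.14 and 11.4 injured, where uninjured replicate 1 alone was low, and Mrps2, whose injured replicate 2 lay just under uninjured replicate 3, was at 6.04, 6.28 and 8.02 uninjured and 14.5, 7.70 and 9.76 injured.

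Counted over all 62 members, the highest library was injured replicate 1 for 38, injured replicate 3 for 8 and injured replicate 2 for 4, and uninjured replicates 1 to 3 for 1, 6 and 5. Without the 2 members that hold values of 0.001, the lowest library was uninjured replicate 1 for 33, replicate 2 for 12 and replicate 3 for 5, and injured replicates 1 to 3 for 4, 5 and 1. Uninjured replicate 1 and injured replicate 1 were thus the most frequent ends of the members' ranges.

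Compared with 2 related families, the mitochondrial ribosomal proteins had the higher median change, as a description without a test. Both were picked by the form of the symbol among listed entries, and they need not be complete or free of paralogues. The 50 cytosolic ribosomal protein genes so found had a median of -0.08, with 22 positive and 3 non-overlapping on the higher and 1 on the lower side. The 65 nuclear genes of the respiratory chain and ATP synthase, whose partner subunits the mitochondrial ribosome makes, had a median of 0.11, with 40 positive and 4 non-overlapping higher and 1 lower. Shares without overlap were 6% higher and 2% lower for the cytosolic ribosome and 6.15% and 1.54% for the respiratory genes, where 12% and 6.75% of all genes did not overlap. In injured replicates 1 to 3 the medians stood at 0.18, -0.29 and -0.14 for the cytosolic ribosome and at 0.28, -0.031 and -0.13 for the respiratory genes relative to their uninjured means, against 0.68, -0.0084 and 0.32 for the mitochondrial ribosome. Among the injured libraries replicate 1 held the highest median of all 3 families.

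Genes that work with the mitochondrial ribosome were taken from lists, which hold older and newer symbols of some genes. None of their genes passed the test in either direction, and at an unadjusted p under 0.05 there were 2 higher translation factors, 3 higher genes of transcription and transcript stability, 1 higher regulator and 0 in the other 3 lists, where 7.15% of all genes were. Counts this small are given as descriptions, and the non-overlapping genes named below are to be read beside the 12% of all genes that did not overlap on the higher side. Of the ribosomal proteins that carry other names, 5 of 6 symbols listed, 4 had a positive change, with a median of 0.50. Aurkaip1, a small subunit protein, was at 20.9, 34.7 and 32.6 FPKM without injury and at 50.98, 26.6 and 41.6 with it. Ict1, a peptidyl-tRNA hydrolase built into the large subunit, was at 10.2, 27.7 and 22.5 uninjured and 42.6, 20.6 and 29.7 injured. Injured replicate 1 was the highest library for both. Gadd45gip1 of the large subunit was listed at 0.001 in uninjured replicate 1 and injured replicates 2 and 3 and at 4.83, 5.26 and 2.70 in the other libraries. Dap3, a GTP-binding small subunit protein and the only non-overlapping gene of the list, was at 3.15, 3.24 and 3.34 uninjured and 12.4, 4.50 and 4.92 injured and was named after its values were seen.

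Translation factors of the mitochondrion, 7 of 13 symbols listed, had a median change of 0.38, with 6 positive and 4 non-overlapping, Gfm1, Gfm2, Oxa1l and Tsfm. Gfm1, the elongation factor that moves the ribosome along, was at 8.03, 9.41 and 8.19 FPKM without injury and at 24.8, 9.62 and 17.5 with it (change 0.85, SE 0.33, limma adjusted p = 0.393). Gfm2, which takes part in recycling the ribosome, was listed at 0.001 in all 3 uninjured libraries and at 1.54, 4.0 and 3.97 in injured ones, so it passed the filter on low values only through the injured group and had to differ. Without it the 6 other factors had a median of 0.37, with 3 non-overlapping and 1 at an unadjusted p under 0.05. Oxa1l, the inner membrane insertase that receives new chains, was at 9.67, 10.9 and 11.2 uninjured and 15.5, 11.5 and 12.1 injured. For Oxa1l the groups were separated by little, 11.2 against 11.5, whereas Gfm1 was clearly apart in injured replicates 1 and 3 only. The 8 mitochondrial aminoacyl-tRNA synthetases listed, of 17, had a median of -0.04, with 4 positive and 0 non-overlapping. Lars2, the leucine enzyme, was at 404, 334 and 698 uninjured and 276, 575 and 469 injured, and Iars2, the isoleucine enzyme, at 8.27, 7.45 and 7.84 uninjured and 8.70, 7.06 and 10.5 injured. Both overlapped. Rars2, the arginine enzyme, was at 0.001 in uninjured replicate 1, at 9.19 and 7.10 in the other uninjured libraries and at 6.27, 18.2 and 7.55 after injury.

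The list of mitochondrial transcription and transcript stability, 8 of 14 symbols listed, had the highest median of these lists, 0.74, with 7 positive. Lrpprc, which stabilises mitochondrial messenger RNAs, was at 8.19, 6.48 and 8.24 FPKM without injury and at 21.2, 8.36 and 26.5 with it. Injured replicates 1 and 3 were far above the uninjured libraries and replicate 2 barely so (change 1.06, SE 0.39, limma adjusted p = 0.376). Mtpap, the polymerase that adds poly(A) tails to those RNAs, was at 10.7, 8.89 and 7.32 uninjured and 17.2, 9.88 and 12.8 injured and overlapped. The other non-overlapping gene was Supv3l1, an RNA helicase of mitochondrial RNA decay named after its values were seen, at 3.16, 3.87 and 2.17 uninjured and 4.99, 6.40 and 10.3 injured. Assembly and rRNA modification factors, 6 of 27 symbols listed, had a median of 0.37 with 4 positive. Mterfd1, a factor of large subunit assembly, was at 16.04, 11.7 and 17.9 uninjured and 20.3, 15.99 and 19.6 injured. Nsun4, which methylates the small subunit's RNA, was at 7.97, 5.55 and 4.34 uninjured and 1.23, 5.85 and 3.90 injured, and the helicase Dhx30 at 3.66, 6.42 and 3.40 uninjured and 4.64, 3.17 and 0.001 injured. These 3 overlapped between groups, while Fastkd2, needed for the large subunit's RNA and named after its values were seen, did not, at 2.23, 2.14 and 1.88 uninjured and 4.38, 3.97 and 3.58 injured.

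Regulators of mitochondrial biogenesis, 7 of 9 symbols listed, had a median change of 0.27, with 5 positive. Gabpa, an ETS factor, was at 18.4, 15.8 and 11.8 FPKM without injury and at 15.6, 12.6 and 25.1 with it, and overlapped. Myc was at 10.6, 9.35 and 14.8 uninjured and 25.6, 8.49 and 29.8 injured, high in injured replicates 1 and 3 and below the uninjured range in replicate 2. Ppargc1a, a coactivator of mitochondrial gene expression, was at 5.02, 29.7 and 7.47 uninjured and 2.22, 2.49 and 10.6 injured, with uninjured replicate 2 apart from the others. The non-overlapping genes, named after their values were seen, were Gabpb1, the partner of Gabpa, at 7.49, 5.32 and 6.24 uninjured and 7.62, 15.7 and 8.79 injured, and Pprc1, a coactivator related to Ppargc1a, at 2.26, 2.03 and 2.26 uninjured and 6.64, 3.37 and 8.45 injured. Pprc1 varied little among uninjured libraries (change 1.10, SE 0.38, limma adjusted p = 0.365).

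**Figure D5:**
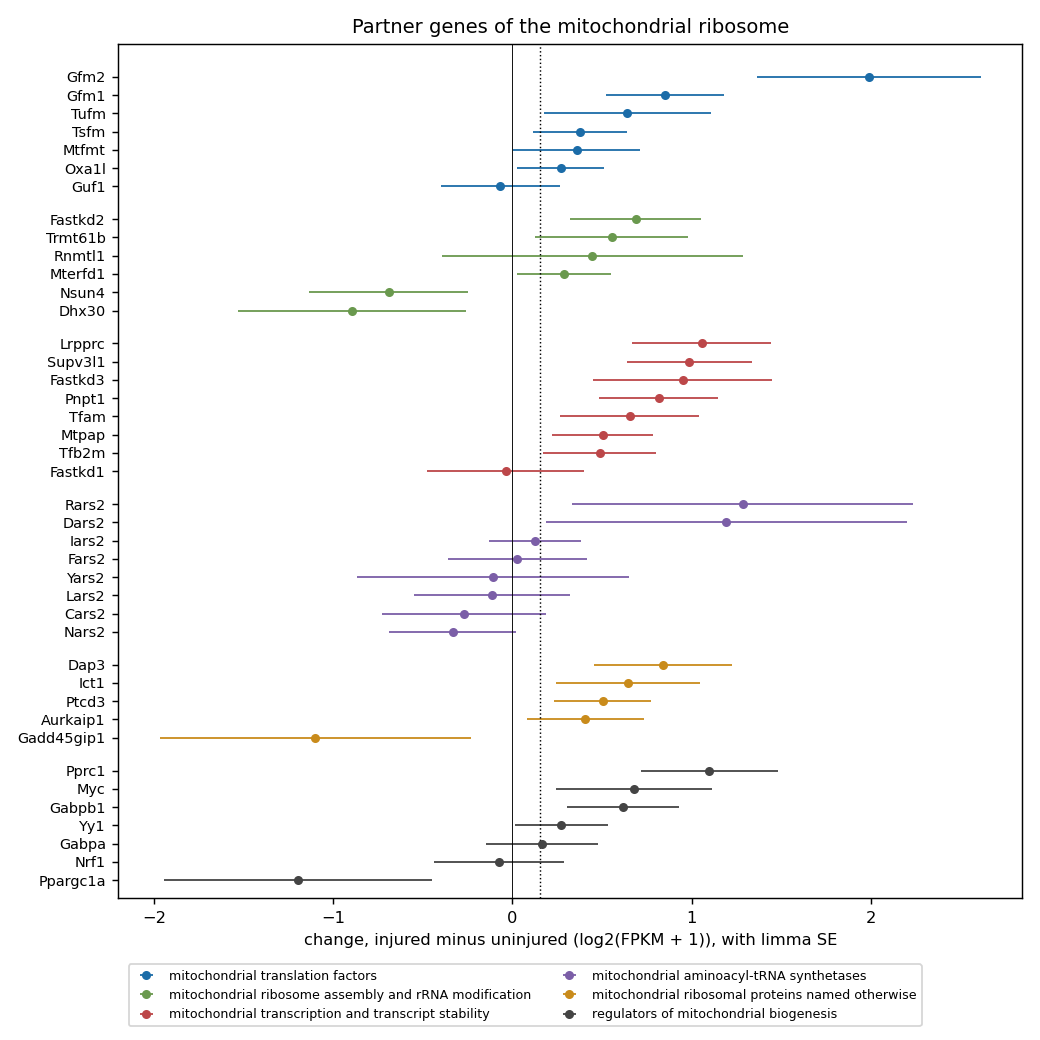
Change of each listed partner gene in log2(FPKM + 1), injured minus uninjured, with its standard error from limma, by list; the dotted line is the median of all genes. The transcription and transcript stability genes lie mostly above that line, and the aminoacyl-tRNA synthetases lie on both sides of 0.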

How the data were processed

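The study measured polyA RNA in 6 libraries, 3 per group, made with Nextera XT, a kit that does not mark strand, per the labels' protocols. What the authors deposited is 1 table of per-gene values for the 6 libraries. It names no unit. The deposited values were read as FPKM that the authors made with TopHat and Cuffdiff, since the submitters' processing notes list these tools with FastQC and build mm9. Versions, annotation, scaling and the filter on listed genes are not given in the sources used here. Depth is unknown, so no counting interval was computed. How reads shared with pseudogenes or overlapping genes were counted is not given either. All 62 members passed the filter of a mean of at least 1 FPKM, as did 7987 of 8078 genes. limma 3.58.1 in R 4.3.3 compared the groups on log2(FPKM + 1) with trend and robust variances, no covariate, and Benjamini-Hochberg adjustment over all genes at 0.05; it was tested on simulated data. Alternatives tried were leaving out each library, a block for the replicate number, other filters, pseudocounts, scalings and variance models. Members and lists were chosen with earlier results of these data known. Named were non-overlapping members, the 5 highest and 3 lowest by level, members of fixed role, and of each list the 2 most abundant genes and the 1 with the largest absolute change; others are marked. Promoters came from RefSeq tables of build GRCm38.p6, not the study's build. Figures used matplotlib 3.10.9 in Python 3.11.15. P-values measure the spread between pooled libraries.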

Additional observations from a re-analysis of the deposited data

How the results depend on the processing

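The family's median change stayed positive under every alternative run, from 0.14 after quantile normalization to 0.46 without injured replicate 2, and its excess over the median of all genes ran from 0.025 (without injured replicate 1) to 0.28. Leaving out 1 library at a time, the median was 0.18 to 0.46, members called higher by limma 0 to 2, members at an unadjusted p under 0.05 1 to 16 higher and 0 to 1 lower, non-overlapping members 12 to 27 higher and 0 to 4 lower, and all genes called 0 to 278 higher and 1 to 92 lower, the upper values of the gene counts without injured replicate 2. In these fits 3.77 to 17.5% of all genes were higher at an unadjusted p under 0.05, and 15.9 to 29.7% higher and 8.40 to 14.4% lower without overlap. With 5 libraries groups overlap less often by construction, so these counts cannot be set against those with 6. Without injured replicate 2 the members' shares were 25.8% at that p and 43.5% without overlap, where all genes had 17.5% and 29.7%. The median of all genes was -0.0081 with upper-quartile scaling, 0.0087 with quantile normalization and 0.015 without Mir703. With these scalings, in that order, higher members at an unadjusted p under 0.05 numbered 1, 2 and 1 (all genes 4.19, 4.49 and 4.85%). Non-overlapping lower members numbered 2, 2 and 1 (all genes 11.2, 10.7 and 10.3%). Upper-quartile scaling left 6 non-overlapping higher members (all genes 7.27%) and called 3 genes lower, and quantile normalization called 4 lower. A mean of at least 5 FPKM, which tests fewer members, left 3 higher at an unadjusted p under 0.05, 5.36% beside 7.83% of all genes. Library quality weights gave 11 such members, 17.7% of the family beside 14.2% of all genes, and called 85 genes higher and 49 lower. Without trend and robust steps limma called 3 higher and 3 lower, and a pseudocount of 0.1 called 2 lower. With the replicate number as a block, limma called 1 member lower, Mrpl17, and 0 higher, and it called 134 genes higher and 87 lower. At an unadjusted p under 0.05 the block fit had 3 higher members, 4.84% beside 7.55% of all genes. It had 1 lower member there, where 3.99% of all genes were lower. Same-numbered libraries did not deviate together (correlations of -0.089, 0.068 and -0.078). Deviations of 3 libraries from a group mean cannot settle whether these libraries share more than a number, such as a batch. The change of Mrps21 was -0.15, -0.13, -0.13 and -0.061 and that of Mrps18c -0.11, -0.083, -0.082 and -0.26 with the 3 scalings and the weights, and that of Mrps30 was 0.14 with the weights. Leaving out 1 library turned the sign of small changes: the ranges were -0.39 to 0.32 for Mrps21, -0.043 to 0.57 for Mrpl3, -0.30 to 0.39 for Mrps18c, -0.12 to 0.14 for Mrps30, -0.087 to 0.44 for Mrpl10, -0.49 to 0.10 for Mrpl11, -0.081 to 0.39 for Mrps36 and -0.58 to 0.0057 for Mrps12. Leaving out the members with a value of 0.001, or Mrps36, both chosen after seeing the data, gave medians of 0.31 and 0.32. The cause of these differences was not tested.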

Other observations

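The entry that joins Mrps6 with Slc5a3 was at 6.98, 17.9 and 17.5 FPKM in uninjured replicates 1 to 3 and at 28.7, 12.8 and 32.3 in injured ones, and the entry that joins Mrpl53 with Ccdc142 at 11.4, 16.8 and 12.8 and 23.6, 13.6 and 10.96. Neither can be read as the level of the ribosomal gene.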
